A study of Mus musculus with 12 samples.

Results

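The change of gene expression over 8 passages on laminin was compared between a clone of mouse embryonic fibroblasts with mutated β1 integrin (YYFF) and a clone with the normal subunit (WT). For each gene, the change in the YYFF clone (L8 minus L0) less the change in the WT clone (L8 minus L0) is called the interaction here. It is positive where the YYFF change was the higher of the pair and negative where it was the lower. The comparison uses 8 of the 12 arrays of the series, 2 in each of the 4 groups WT L0, WT L8, YYFF L0 and YYFF L8. Of 8891 genes tested, 2831 (31.8%) had an interaction with an adjusted p under 0.05.

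All cells came from female C57BL/6 embryos at E13.5, carried SV40 large T for immortalization and were grown in DMEM with 10% FBS. L0 cells were not plated on laminin. L8 cells went through 8 rounds of a night on laminin in serum-free hybridoma medium, followed by normal medium, and were then grown on plastic. According to the labels' protocols, the mutation keeps cells from completing cytokinesis on a matrix that only β1 integrins bind. Each genotype is a single clone, so a difference between genotypes and a difference between clones cannot be told apart. L8 cells were also longer in culture than L0 cells in both clones. Whether the arrays of a group represent separate cultures is not stated in the labels, and the spread behind each p-value is that between these arrays alone.

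The β1 subunit pairs with several α subunits to form receptors for laminins, collagens and fibronectin, and its tail recruits adaptor proteins that tie the receptor to actin. Cytokinesis separates the daughter cells after chromosome segregation. When it fails, a cell keeps the chromosomes of both daughters, and later divisions of such cells can yield aneuploid progeny.

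Signals are log2 values of background-corrected, quantile-normalized bead intensities, given per array with replicate 1 first. Values after ± are standard errors of a log2 change from limma, adjusted p-values are Benjamini-Hochberg over the 8891 genes, and n is 2 arrays per group throughout. A gene was called above background on an array where its detection p was under 0.05. Between 10392 and 11766 probes per array were above background, with total signals of 13197182 to 17683779. Of 13 fibroblast markers on the array, 9 to 10 were above background on each of the 8 arrays, among them Col1a1, Col3a1, Dcn, Pdgfrb and Vim, while Fap, Lum and Thy1 were at background on all 8. Of 10 macrophage and leukocyte markers and 9 endothelial markers, 1 to 2 each were above background on any array, Cd14 and Egfl7 on all 8, and Ptprc, Adgre1, Cdh5, Pecam1 and Kdr on none. Neural and glial markers summed to 2749 to 2866 on the linear scale in YYFF L0 and 957 to 1275 in the other 3 groups. Of 9 such markers, 3 to 5 were above background on each array, Map2, Nes and Sox2 on all 8, and Gfap, Tubb3, Elavl4 and S100b on none. Map2 was high in YYFF L0, at 11.08 and 10.98 on the log2 scale against 8.74 and 8.64 in WT L0. Nes and Sox2 were lower in YYFF L0 than in WT L0, so the sum does not describe the markers as a set. The part of these markers in the results was not tested. In bulk RNA, fewer cells of a kind and less RNA per cell cannot be told apart.

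Xist, which silences an X chromosome in female cells, was above background on all 6 WT arrays and on none of the 6 YYFF arrays with either of its probes, although both clones are labelled female. The Y-linked genes Eif2s3y, Kdm5d and Usp9y were at background on all arrays, and the probe for Uty was above it on all arrays of both clones. The arrays of WT L0 also differed from each other in genes that were on in the later YYFF arrays. Of 25 genes above background on all YYFF L4 and L8 arrays, on none of WT L4 and L8, and with a mean of at least 8 in YYFF L8, 23 were higher in WT L0 replicate 2 than in replicate 1, by a median of 0.69. The same comparison in YYFF L0 gave 9 of 25 and a median of -0.04. For 33 genes with the reverse pattern, WT L0 replicate 2 was the higher array in 7, with a median of -0.20. This set was chosen after its values were seen, its part in the results was not tested, and values without that array are given beside the genes described below whose WT change they move across the threshold.

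Within a clone, 3234 genes (36.4%) changed past the threshold in YYFF and 3212 (36.1%) in WT. Of the interactions, 1442 (16.2% of genes tested) were at least 2-fold, and 1823 passed with any of the 8 arrays left out. Genes whose interaction passed the threshold were divided by how each clone moved. In 533 genes (5.99% of those tested) both clones changed past the threshold in opposite directions. Another 924 genes (10.4%) changed in the YYFF clone alone, with a WT change that missed the threshold and was under 0.5 in size. A further 885 genes (9.95%) changed in the WT clone alone by the same rule. The remaining genes were 289 that moved the same way in both clones by different amounts and 200 that met none of these definitions. Without WT L8 replicate 2 the opposite group counted 346 genes. Median scaling in place of quantile normalization called 1753 interactions among the same 8891 genes, of which 34.6% were positive against 45.1%. It left 283 genes in opposite directions, 600 in YYFF alone and 476 in WT alone. Counts of list members under median scaling, given below, stand against these 1753 of 8891 genes and not against 31.8%.

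**Figure D1:**
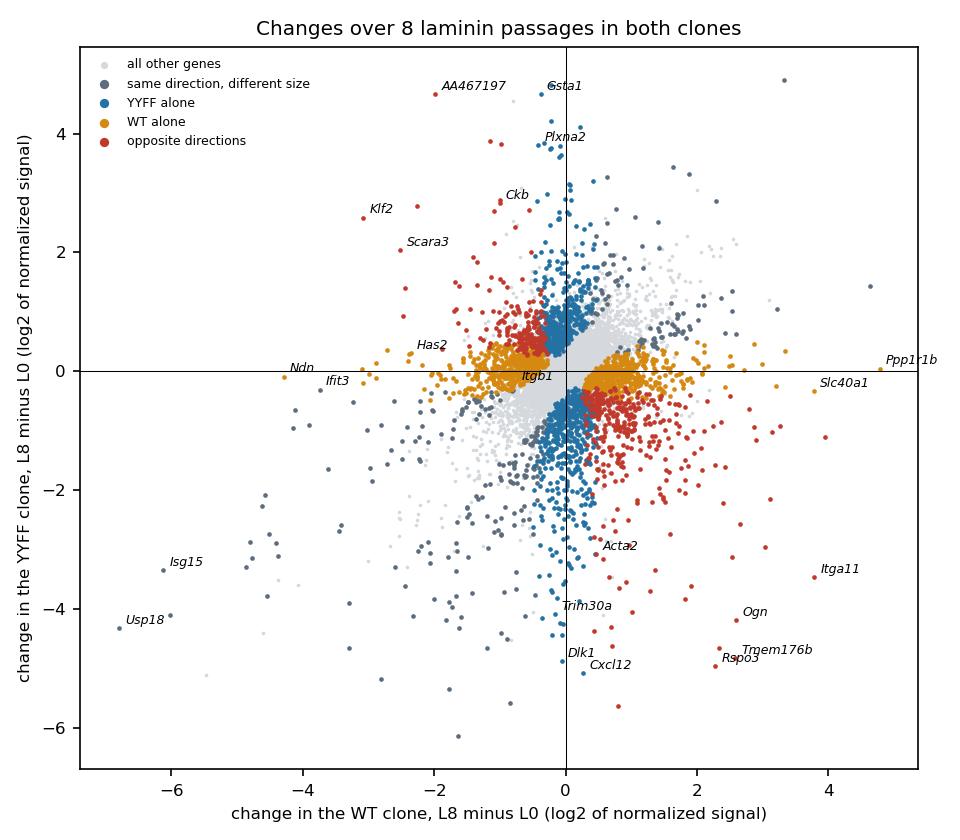
Change over 8 laminin passages in the WT clone (horizontal axis) and the YYFF clone (vertical axis), in log2 of normalized signal, for the 8891 genes tested. Each point is a gene, colours give the class of its interaction, and pale grey points are all other genes. The 533 genes that moved in opposite directions lie in the upper left and lower right corners, and the 924 and 885 genes of a single clone lie along the vertical and horizontal axes.

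The changes of the clones correlated weakly across genes (Pearson r = 0.22, Spearman rho = 0.18, over 8891 genes, which are not independent replicates). They share no array. Of 1582 genes that changed past the threshold in both clones, 1049 moved in the same direction.

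Itgb1, which encodes the β1 subunit and carries the mutation in YYFF, had signals of 9.04 and 9.10 in WT L0, 8.40 and 8.22 in WT L8, 9.20 and 8.91 in YYFF L0, and 8.85 and 8.80 in YYFF L8. WT fell by 0.77 ± 0.15 (adjusted p = 0.00358), while the YYFF change of -0.23 ± 0.15 missed the threshold (0.273). Its interaction of 0.54 ± 0.21 missed the threshold (limma, adjusted p = 0.0802). The other Itgb1 probe above background gave an interaction of the opposite sign, -0.80 ± 0.53 (adjusted p = 0.305 in limma over all detected probes), so the direction is not settled. The array measures the amount of the transcript and does not check the mutation.

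A class of 343 genes fell in YYFF and rose in WT. Rspo3 encodes an R-spondin, a secreted protein that amplifies Wnt signals. Its signals were 7.84 and 7.42 in WT L0, 9.89 and 9.93 in WT L8, 10.46 and 10.37 in YYFF L0, and 5.49 and 5.40 in YYFF L8. WT rose out of its L0 range while YYFF fell to background on both arrays, so the clones changed places. The fall in YYFF was at least 26.3-fold, the rise in WT was 2.28 ± 0.16, and the interaction was -7.25 ± 0.22 (limma, adjusted p = 2.52e-07). A bound such as this sets the brighter group against the lowest signal called above background on the dimmer arrays, where that exceeds the gene's own.

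Itga11 encodes the α11 subunit, which pairs with β1 to bind collagen. Its signals were 5.05 and 4.80 in WT L0, 8.58 and 8.84 in WT L8, 8.24 and 8.07 in YYFF L0, and 4.65 and 4.74 in YYFF L8. The gene was off in WT before laminin and in YYFF after it, and on in the other pair of groups. It rose at least 9.01-fold in WT and fell at least 5.49-fold in YYFF, with an interaction of -7.25 ± 0.25 (adjusted p = 2.88e-07). A dimmer Itga11 probe gave -2.99. Itgb4, the β subunit of the laminin receptor of hemidesmosomes, also fell at least 3.31-fold in YYFF and rose by 1.08 ± 0.21 in WT, for an interaction of -3.30 ± 0.30 (adjusted p = 4.98e-05).

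Ogn, a small leucine-rich proteoglycan of the matrix, had signals of 8.79 and 8.97 in WT L0, 11.44 and 11.53 in WT L8, 12.50 and 12.63 in YYFF L0, and 8.41 and 8.34 in YYFF L8. It was above background on every array, and the clone that started low ended high. The interaction was -6.79 ± 0.14 (adjusted p = 4.5e-08), and the other Ogn probes gave -3.38 and -3.73. Tmem176b, a membrane protein, rose by 2.58 ± 0.19 in WT to 11.51 on both L8 arrays and fell at least 19-fold in YYFF from 9.95 and 9.93. Its interaction of -7.41 ± 0.26 was the lowest of the genes past the threshold (adjusted p = 2.88e-07).

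The Wnt pathway list held more such genes. Of its 20 tested members, 11 passed the interaction threshold, 4 with a higher and 7 with a lower change in YYFF, against 14.4% and 17.5% of all genes. Its median interaction was -0.37 (-0.08 with genes at background set to their bounds) against 0.03 for all genes. Sfrp2, a secreted frizzled-related antagonist, had signals of 8.47 and 8.54 in WT L0, 10.03 and 10.61 in WT L8, 9.16 and 8.81 in YYFF L0, and 5.19 and 5.12 in YYFF L8. The L0 groups lay close together and the L8 groups far apart, with an interaction of -5.65 ± 0.39 (adjusted p = 1.06e-05). Wnt5a, a ligand, fell in both clones to background, by at least 9.32-fold in YYFF and at least 2.11-fold in WT. The agonist Rspo3 and the antagonist Sfrp2 moved in the same direction in each clone.

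Ptn, a heparin-binding growth factor, rose by 1.02 ± 0.22 in WT and fell by 4.06 ± 0.22 in YYFF, from 11.47 and 11.41 to a mean of 7.38. Ppbp, a CXC chemokine precursor, had signals of 9.38 and 9.30 in WT L0, 12.09 and 11.91 in WT L8, 9.82 and 9.96 in YYFF L0, and 7.43 and 7.21 in YYFF L8. It rose and fell by almost the same amount, 2.66 ± 0.12 in WT and -2.57 ± 0.12 in YYFF (interaction -5.23 ± 0.17, adjusted p = 2.87e-07). Angptl7, a secreted angiopoietin-like protein, rose by 2.34 ± 0.26 in WT and fell at least 11.8-fold in YYFF.

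Hs3st3a1, which adds a sulfate to heparan sulfate chains, gave an interaction of -5.25 ± 0.16 (adjusted p = 2.52e-07), and Arhgap24, a GTPase-activating protein for Rac, -4.72 ± 0.15 (2.52e-07). Stmn2, a microtubule-destabilizing stathmin, gave -4.61 ± 0.21 (1.12e-06), the aldehyde dehydrogenase Aldh3b1 -4.18 ± 0.17 (6.3e-07) and the carbonyl reductase Cbr2 -4.16 ± 0.30 (1.49e-05). Epha3, an ephrin receptor, rose by 1.91 ± 0.20 in WT and fell at least 7.34-fold in YYFF. Fas, the death receptor and a p53 target, rose by 0.82 ± 0.13 in WT and fell by 3.64 ± 0.13 in YYFF.

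Fewer genes went the other way, with 190 that rose in YYFF and fell in WT. Klf2, a zinc-finger transcription factor, had signals of 8.57 and 8.79 in WT L0, 5.66 and 5.53 in WT L8, 8.32 and 8.34 in YYFF L0, and 10.96 and 10.88 in YYFF L8. The clones lay close together before laminin and 5.32 apart after it. Klf2 fell by 3.08 ± 0.12 in WT and rose by 2.59 ± 0.12 in YYFF, for an interaction of 5.67 ± 0.17 (adjusted p = 2.52e-07). Scara3, a scavenger receptor, had signals of 10.34 and 10.61 in WT L0, 7.92 and 7.99 in WT L8, 9.37 and 9.47 in YYFF L0, and 11.45 and 11.47 in YYFF L8. WT was the higher clone before laminin and the lower one after it (interaction 4.56 ± 0.16, adjusted p = 2.88e-07).

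Ckb, the brain form of creatine kinase, rose from 11.23 and 11.14 to 14.01 and 14.01 in YYFF and fell from 11.72 and 11.83 to 10.73 and 10.81 in WT (interaction 3.83 ± 0.13, adjusted p = 2.88e-07). Dusp1, a phosphatase that switches off MAP kinases, gave 3.19 ± 0.14 (6.83e-07), with a rise of 1.51 ± 0.10 in YYFF and a fall of 1.68 ± 0.10 in WT. Cd44, the hyaluronan receptor, rose by 1.36 ± 0.10 in YYFF and fell by 1.16 ± 0.10 in WT. Ramp2, which escorts the calcitonin-like receptor, gave 3.87 ± 0.29, Fez1, a kinesin adaptor, 3.84 ± 0.22, and Gap43, a growth cone protein, 5.04 ± 0.31.

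In part of this class the fall in WT rested on WT L0 replicate 2. AA467197 had signals of 5.76 and 8.32 in WT L0, 5.10 and 5.01 in WT L8, 6.58 and 6.28 in YYFF L0, and 11.06 and 11.12 in YYFF L8. The L0 arrays of WT lay on either side of those of YYFF. Its interaction of 6.64 ± 0.87 (adjusted p = 0.00052) became 5.36 without that array, and its WT change went from -1.98 to -0.70. Gfpt2, which feeds the hexosamine pathway, and Thbs2, a matrix thrombospondin, rose at least 10.2-fold and 11.1-fold in YYFF. Their WT changes of -1.16 and -0.99 became -0.36 and -0.31 without WT L0 replicate 2 and missed the threshold (limma, adjusted p = 0.0543 and 0.173), while the interactions stayed past it at 4.23 and 4.14.

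**Figure D2:**
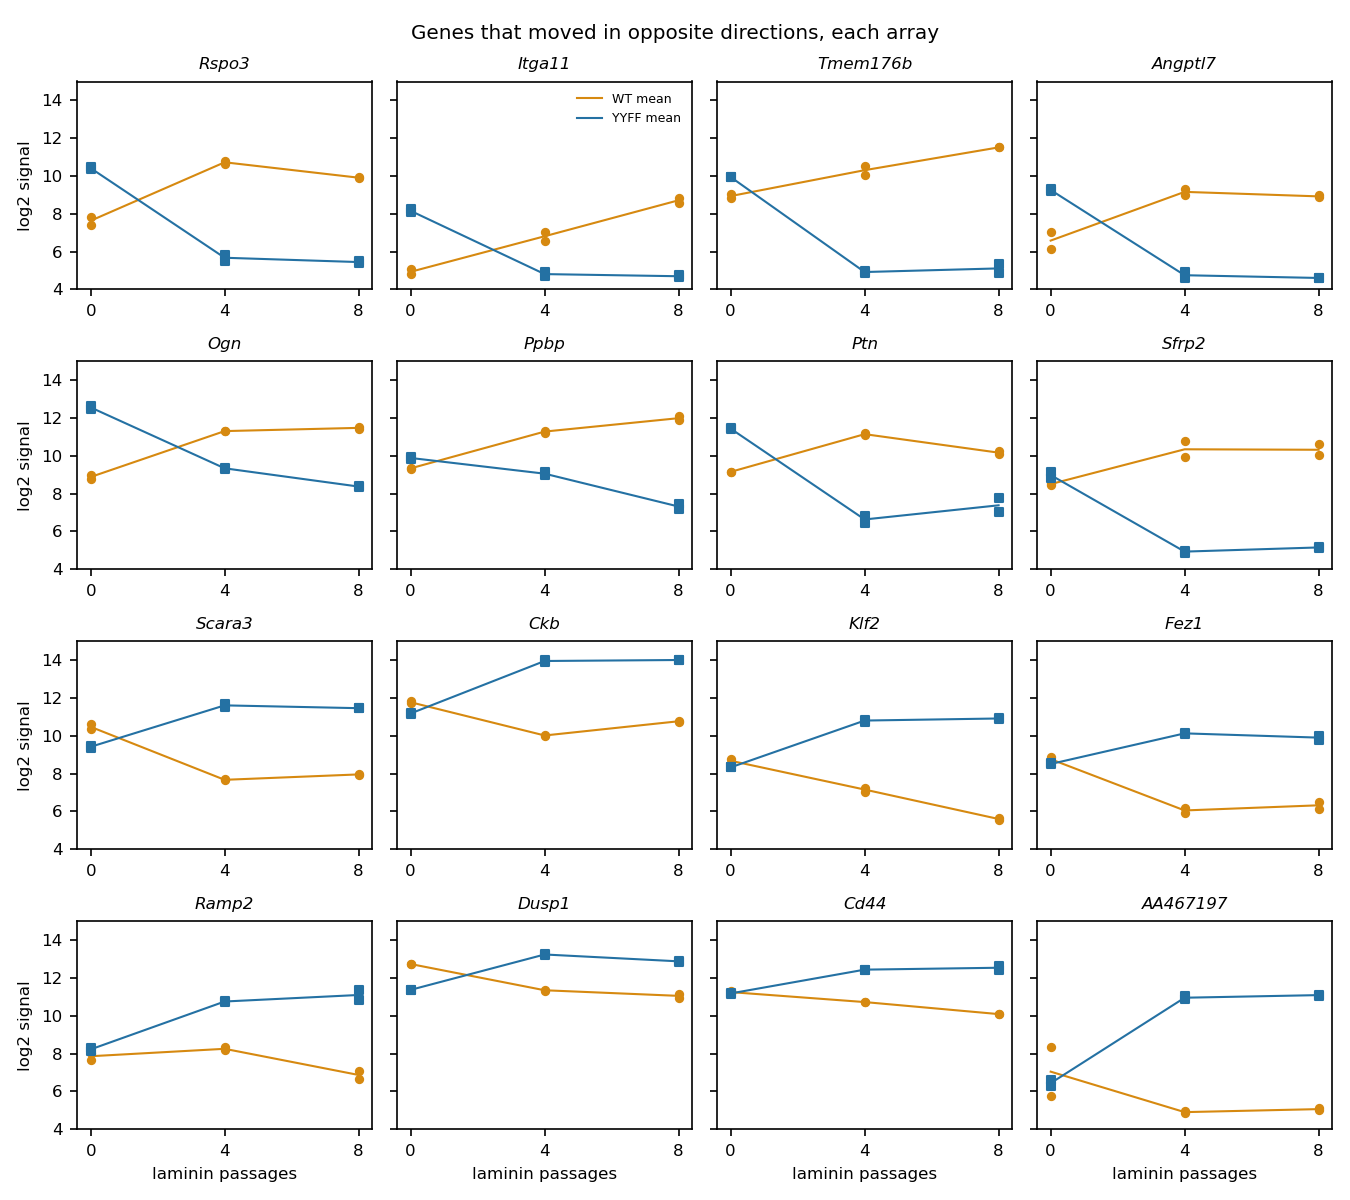
Signal (log2 of normalized signal) on each array against the number of laminin passages for 16 genes that moved in opposite directions, with circles for WT and squares for YYFF and lines through the group means. The upper 8 genes, from Rspo3 to Sfrp2, rose in WT and fell in YYFF, and the lower 8, from Scara3 to AA467197, did the reverse. The 2 WT L0 arrays of AA467197 lie at 5.76 and 8.32.

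Among the 501 genes that fell in YYFF alone, Cxcl12 showed the greatest interaction of those above background on all 8 arrays. It encodes a chemokine that fibroblasts release. Its signals were 13.13 and 13.07 in WT L0, 13.34 and 13.39 in WT L8, 11.67 and 11.78 in YYFF L0, and 6.47 and 6.83 in YYFF L8. YYFF arrays were lower than WT arrays throughout, and the gap widened from 1.37 to 6.72. The fall in YYFF was 5.08 ± 0.14 on the log2 scale, the WT change was 0.26 ± 0.14 (adjusted p = 0.18), and the interaction was -5.34 ± 0.20 (3.51e-07). In the chemokine and cytokine list, 12 of 17 tested members passed the threshold (70.6% against 31.8% of all genes), 3 with a higher and 9 with a lower change in YYFF (median -0.89).

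Of 16 tested smooth muscle and contractile genes, 10 had a negative interaction past the threshold and 0 a positive one (62.5% against 31.8% of all genes), with a median of -0.85, and limma with median scaling called 6. Acta2, the actin of smooth muscle and myofibroblasts, had signals of a mean of 13.96 in WT L0, 14.45 and 14.39 in WT L8, 14.50 and 14.57 in YYFF L0, and 11.37 and 11.54 in YYFF L8. YYFF L8 stood well below the other 3 groups. Acta2 rose by 0.46 ± 0.11 in WT and fell by 3.08 ± 0.11 in YYFF. Without WT L0 replicate 2 the WT change of Acta2 was 0.43 and missed the threshold (limma, adjusted p = 0.0677). The interaction was -3.54 ± 0.16 (adjusted p = 1.01e-06) at this bright probe and between -5.71 and -6.62 at 3 dimmer ones. At those 3 probes WT rose by 0.84 to 1.08, and YYFF started above WT. The dimmest of them had signals of 10.46 and 10.67 in WT L0 and 13.16 and 13.36 in YYFF L0. The close start of the clones and the value without WT L0 replicate 2 are those of the bright probe.

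Other contractile genes also started from different levels in the clones. Lmod1, a leiomodin that nucleates actin filaments, was at background on all WT arrays and fell from 8.49 and 8.22 to 4.89 and 4.76 in YYFF, at least 6.32-fold. Actg2, the enteric smooth muscle actin, fell by 2.80 ± 0.20 in YYFF and changed by 0.37 ± 0.20 in WT (adjusted p = 0.177, and 0.69 with adjusted p = 0.0176 in limma without WT L0 replicate 2), and was 5.13 ± 0.20 higher in YYFF than in WT at L0. Acta1, the skeletal muscle actin, fell by 1.28 ± 0.16 in YYFF and rose by 0.94 ± 0.16 in WT. Tagln, an actin-binding protein, fell in both clones, with changes of -3.89 ± 0.13 in YYFF and -1.78 ± 0.13 in WT.

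The windows before the start sites of Acta1 and Vcl are shown because they hold a CArG box, the site of serum response factor. Both are RefSeq promoter sequences of build GRCm38.p6 with the motif in capitals. Acta1 lies at chr8:123894809-123894878 (minus strand) and Vcl at chr14:20929148-20929210 (plus strand).
Acta1: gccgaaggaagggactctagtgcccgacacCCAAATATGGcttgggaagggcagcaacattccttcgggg
Vcl: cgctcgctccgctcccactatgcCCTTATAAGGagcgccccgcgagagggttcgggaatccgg
The palindromic box was searched in the 250 bases before each start. It was found for 3 of the 13 contractile genes with an entry, among which Acta2 and Lmod1 had no match, and for 104 of 7278 tested genes with an entry (1.43%). The match not shown was in Cnn2, whose interaction of -0.29 missed the threshold. Among contractile genes with an entry, matches were in 2 of 7 past the interaction threshold and 1 of 6 not past it. A match describes these letters and does not show a bound factor.

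Focal adhesion adaptors link integrins to actin. Of 15 tested, 7 (46.7%, against 31.8% of all genes) passed the interaction threshold, 2 with a higher and 5 with a lower change in YYFF, 6 of them in YYFF alone, with a median over the list of 0.02. Median scaling called 2 in limma. Fermt2, a kindlin that activates integrins, had signals of 11.98 and 11.76 in WT L0, 11.63 and 11.68 in WT L8, 12.58 and 12.45 in YYFF L0, and 11.07 and 11.04 in YYFF L8. The WT groups lay close together, and YYFF went from above them to below them (interaction -1.25 ± 0.16, adjusted p = 0.00052). Ilk, the integrin-linked kinase, gave -1.13 ± 0.18 (0.00141, and 0.0622 with median scaling), vinculin (Vcl) -0.79 ± 0.15 (0.00454) and parvin (Parva) -0.76 ± 0.22 (0.0292, and 0.0968 at most with an array left out). Vcl and Parva were chosen after their values were seen. Of 13 integrin subunit genes 7 passed (53.8% against 31.8%), 2 higher and 5 lower, and 2 passed among subunits above background on all 8 arrays. Of the 13, 6 were at background on both arrays of at least 1 compared group.

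Large T binds the transcription factor p53. Of 26 p53 targets tested, 14 had a negative and 3 a positive interaction past the threshold (65.4% in all, against 17.5% negative and 14.4% positive among all genes), with a median of -0.71, and limma with median scaling called 11. Trp53inp1, a stress-induced p53 partner, had signals of 8.62 and 8.71 in WT L0, 8.32 and 8.55 in WT L8, 10.50 and 10.50 in YYFF L0, and 6.86 and 6.78 in YYFF L8. YYFF started above WT and ended below it (interaction -3.45 ± 0.15, adjusted p = 6.83e-07). Gadd45a, a stress response gene, fell by 2.00 ± 0.17 in YYFF with a WT change of -0.28 ± 0.17 (adjusted p = 0.249). At L0 the list was higher in YYFF by a median of 0.79, and at L8 by 0.19. Cdkn1a, which encodes the inhibitor p21 and was chosen after its values were seen, changed by -2.40 ± 0.15 in YYFF and -2.24 ± 0.15 in WT, with an interaction of -0.16 ± 0.21 (adjusted p = 0.609).

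Egfr, the receptor of epidermal growth factor, fell by 2.80 ± 0.12 in YYFF with a WT change of 0.02 ± 0.12. The transcription factors Hey1, Gata2 and the guidance ligand Sema3a had YYFF changes of -3.29 ± 0.15, -3.00 ± 0.12 and -2.99 ± 0.11, with WT changes of 0.26, 0.13 and -0.23 that missed the threshold. In the axon guidance list, 17 of 25 tested members passed (68% against 31.8% of all genes), 7 with a higher and 10 with a lower change in YYFF.

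Several genes that fell in YYFF alone were never on in WT. Dlk1, an imprinted gene for a membrane protein of the Notch ligand family, had signals of 9.62 and 9.55 in YYFF L0 and 4.68 and 4.71 in YYFF L8, with all 4 compared WT arrays between 4.61 and 4.71. Its fall in YYFF was at least 14.8-fold, and its level at L0 at least 16.5-fold above WT. Gas6, a ligand of TAM receptors, fell by 4.43 ± 0.13 in YYFF, from 10.51 and 10.65 to 6.20 and 6.09, and was at background in WT. Cd59a, a surface inhibitor of complement, fell by 4.15 ± 0.14 in YYFF from a level at least 52.3-fold above WT. These genes differed between the clones more at L0 than at L8.

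Of 12 imprinted genes tested, 8 passed the threshold (66.7% against 31.8% of all genes), 1 with a higher and 7 with a lower change in YYFF, with a median interaction of -1.05 (-0.54 with genes at background set to their bounds). Snrpn, which encodes a splicing protein, was on in both clones at L0, at 9.26 and 9.33 in WT and 8.08 and 8.13 in YYFF, and stood at 9.35 and 9.41 in WT L8 and 4.87 and 4.71 in YYFF L8. It fell at least 5.32-fold in YYFF only, although another Snrpn probe, above background on 4 of 8 arrays, gave an interaction of -0.14. Ndn, which encodes necdin and also lies on chromosome 7, was the member with the higher change in YYFF and had signals of 9.23 and 9.13 in WT L0, 4.92 and 4.86 in WT L8, 4.78 and 4.69 in YYFF L0, and 4.61 and 4.68 in YYFF L8. It was on in WT L0 alone and fell at least 12.7-fold there (interaction 4.20 ± 0.16, adjusted p = 4.64e-07).

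A class of 423 genes rose in YYFF alone. Plxna2, a semaphorin receptor, had signals of 7.24 and 7.63 in WT L0, a mean of 7.02 in WT L8, 6.41 and 6.25 in YYFF L0, and 10.34 and 9.92 in YYFF L8. YYFF L8 lay above every other group (interaction 4.22 ± 0.25, adjusted p = 4.49e-06). Eps8, which caps and bundles actin, rose by 2.90 ± 0.19 in YYFF with no change in the WT mean, and Limk1, the kinase that inhibits cofilin, by 1.96 ± 0.11 with a WT change of 0.25 ± 0.11 (adjusted p = 0.108).

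Other genes were switched on from background in YYFF. Itga7, the α7 subunit that pairs with β1 to bind laminin, had signals of 8.02 and 7.49 in YYFF L8 and was at background in YYFF L0 and on all WT arrays. It rose at least 5.02-fold in YYFF (interaction 3.27 ± 0.23, adjusted p = 1.1e-05), while Itga11 went off there. Dusp4, a phosphatase of MAP kinases, had signals of 9.03 and 9.07 in YYFF L8 against 5.29 and 5.35 in YYFF L0 and rose at least 12.3-fold. Gna14, a G protein α subunit, and Cldn3, a tight junction protein, rose at least 18.9-fold and 8.08-fold. Of 11 epithelial markers on the array, of which Cldn3 is one, 4 to 6 were above background in YYFF L8 and 1 to 4 in the other groups, with summed linear signals of 884 to 959 against 409 to 547. Of the 7 tested, 3 had a positive interaction past the threshold, highest in Cldn3 (4.18). Another, Krt7, had a negative one (57.1% past it in all, against 31.8% of all genes), with a YYFF change of -0.89. Krt18, Krt5, Esrp1 and Cldn4 were at background on all 8 arrays, and the part of epithelial cells in these values was not tested.

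Has1 and Has2 encode hyaluronan synthases. Has1 had signals of 5.28 and 6.50 in WT L0, 5.11 and 5.07 in WT L8, 4.90 and 4.88 in YYFF L0, and 9.43 and 9.44 in YYFF L8. It rose at least 16-fold in YYFF, and its WT change of -0.80 ± 0.30 (adjusted p = 0.0697) became -0.19 without WT L0 replicate 2. Has2 had signals of 8.96 and 8.76 in WT L0, 6.44 and 6.55 in WT L8, 6.44 and 6.66 in YYFF L0, and 7.05 and 6.65 in YYFF L8. It fell in WT alone, by 2.36 ± 0.15, to the level that YYFF had throughout (interaction 2.66 ± 0.21, adjusted p = 2.25e-05). Of 20 hyaluronan and heparan sulfate genes tested, 15 passed the threshold (75% against 31.8% of all genes), 7 with a higher and 8 with a lower change in YYFF.

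Glutathione S-transferases conjugate glutathione to reactive compounds. Of 20 tested, 15 passed the threshold (75% against 31.8% of all genes), 4 with a higher and 11 with a lower change in YYFF. The alpha-class Gsta1 had signals at background and of 6.16 in WT L0, 5.03 and 5.37 in WT L8, 6.46 and 6.33 in YYFF L0, and 11.02 and 11.12 in YYFF L8. It rose by 4.67 ± 0.30 in YYFF alone, and Gsta2 rose there at least 17.1-fold. The mu-class Gstm1 had signals of 8.29 and 8.89 in WT L0, 11.01 and 11.17 in WT L8, 8.98 and 9.32 in YYFF L0, and 9.33 and 9.48 in YYFF L8. It rose in WT alone, by 2.50 ± 0.20, although another Gstm1 probe, above background on 1 of 8 arrays, gave an interaction of -0.06.

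The mu-class Gstm4 and Gstm5 rose in WT alone, by 1.10 ± 0.17 and 0.93 ± 0.10, Gstm6 rose there at least 1.25-fold, and Gstm2 rose in both clones, by 3.21 ± 0.12 in WT and 1.05 ± 0.12 in YYFF. These 4 were chosen after their values were seen. The microsomal Mgst1 rose at least 5.75-fold in WT and changed by 0.46 ± 0.22 in YYFF (adjusted p = 0.136). In the theta class, Gstt1 fell at least 2.66-fold in YYFF alone, to background, and Gstt3 fell by 1.96 ± 0.19 in YYFF and rose by 1.42 ± 0.19 in WT. Some genes of the alpha class and of the mu class are near-identical to others of their class, so a probe may read more than its named gene.

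Hox genes encode transcription factors that mark position along the body axis. Of 20 tested, 8 (40%, against 31.8% of all genes) passed the threshold, 6 with a higher and 2 with a lower change in YYFF. Of the 8, 6 changed in YYFF alone and 2, Hoxa5 and Hoxd8, in opposite directions. Without WT L0 replicate 2 the WT changes of Hoxa5 (-0.42) and Hoxd8 (-0.45) missed the threshold (limma, adjusted p = 0.178 and 0.0573). Hoxa5 was chosen after its values were seen. Hoxa7 rose from 8.30 and 8.46 to 9.90 and 9.87 in YYFF, with WT at 8.46 and 8.66 at L0 and 8.65 and 8.49 at L8. Hoxb4 rose at least 3.24-fold from background in YYFF, and Hoxb7 fell at least 1.89-fold to background there.

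Of 447 genes that rose in WT alone, Ppp1r1b, an inhibitor of protein phosphatase 1, had the lowest interaction. Its signals were 4.61 and 4.75 in WT L0, 9.34 and 9.58 in WT L8, 4.64 and 4.73 in YYFF L0, and 4.73 and 4.74 in YYFF L8. WT L8 was the only compared group above background. It rose at least 15.1-fold in WT (interaction -4.73 ± 0.16, adjusted p = 2.88e-07), while dimmer Ppp1r1b probes gave -0.07 and -0.58. Slc40a1, the iron exporter ferroportin, rose at least 9.11-fold in WT to 8.78 and 8.68 and was at background in YYFF. Kcnh2, a potassium channel, rose at least 4.99-fold in WT alone.

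Ccn5, a secreted matricellular protein that also rose in WT alone, had signals of 8.95 and 9.08 in WT L0, 11.09 and 11.09 in WT L8, 11.37 and 11.47 in YYFF L0, and 11.33 and 11.42 in YYFF L8. WT rose to just below the steady YYFF level (interaction -2.12 ± 0.13, adjusted p = 6.5e-06). Lox, which cross-links collagen and elastin, rose by 1.92 ± 0.10 in WT from 1.90 ± 0.10 below YYFF at L0. Cxcl1, a neutrophil chemokine, was alike in the clones at L0, at 11.04 and 10.97 in WT and 10.96 and 10.87 in YYFF, and rose only in WT, by 1.89 ± 0.11.

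A class of 438 genes fell in WT alone. Igfbp2, an insulin-like growth factor binding protein, and Gpc3, a glypican encoded on the X chromosome, fell at least 4.41-fold and 7.92-fold in WT to background and were at background in YYFF throughout. Hs3st1, another heparan sulfate sulfotransferase, fell by 3.10 ± 0.11 in WT from 8.78 and 8.55 and was at background in YYFF L0 and L8 (4.67 to 4.77). Xist itself fell by 1.13 ± 0.11 in WT, from 8.61 and 8.67 to 7.56 and 7.46 (interaction 1.10 ± 0.16, adjusted p = 0.000979).

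Fosl1, a Fos-related subunit of the transcription factor AP-1, had signals of 9.39 and 9.33 in WT L0, 7.49 and 7.31 in WT L8, 8.88 and 9.10 in YYFF L0, and 8.63 and 8.89 in YYFF L8. It fell by 1.96 ± 0.13 in WT alone (interaction 1.73 ± 0.18, adjusted p = 0.000114). Jun fell by 1.62 ± 0.18 in WT alone, while Junb fell in both clones, with changes of -1.45 ± 0.14 in YYFF and -0.53 ± 0.14 in WT (interaction -0.92 ± 0.20, adjusted p = 0.00707). Jun and Junb were chosen after their values were seen. Ccn2, a target of YAP, fell in both clones, with changes of -2.81 ± 0.09 in WT and -0.91 ± 0.09 in YYFF. Of 20 immediate early and YAP target genes tested, 9 had a higher and 4 a lower change in YYFF past the threshold (65% against 31.8% of all genes, median 0.45). Epha2, an ephrin receptor, and Foxc2, a mesenchymal transcription factor, had WT changes of -2.19 ± 0.15 and -2.40 ± 0.25, with YYFF changes of 0.11 and 0.18 that missed the threshold.

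**Figure D3:**
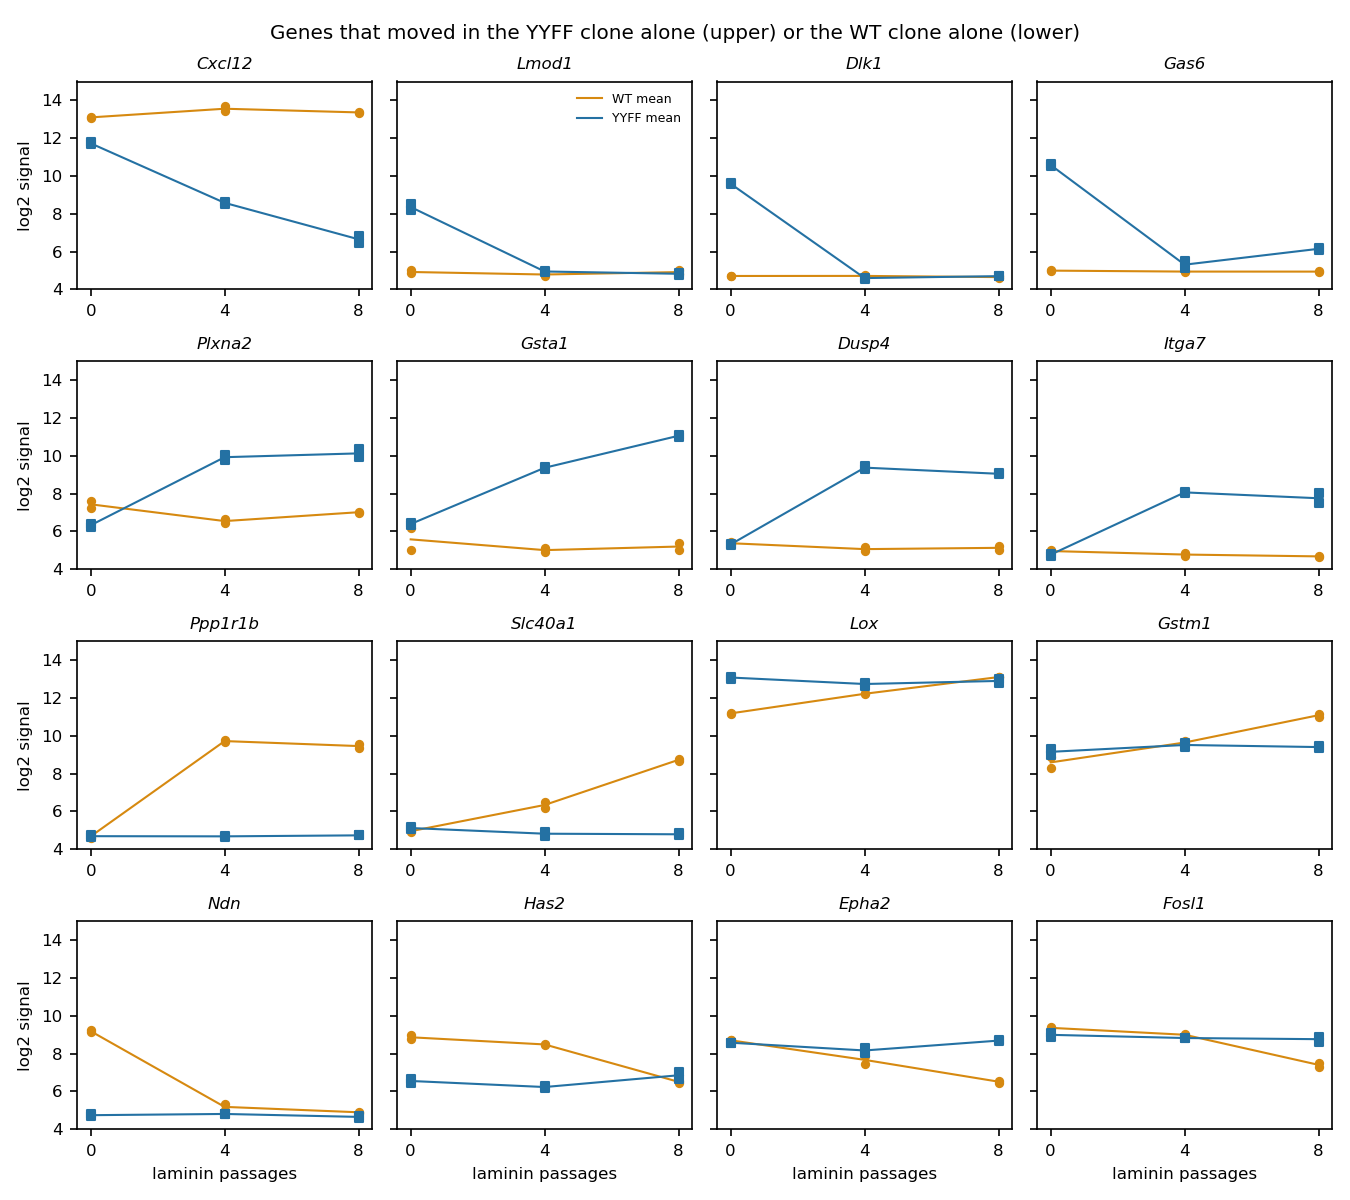
Signal (log2 of normalized signal) on each array against the number of laminin passages, with circles for WT and squares for YYFF and lines through the group means. The upper 8 genes, from Cxcl12 to Itga7, changed in YYFF alone, and the lower 8, from Ppp1r1b to Fosl1, changed in WT alone. Dlk1 and Gas6 start high in YYFF only, and Ndn starts high in WT only.

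Interferon response genes fell in both clones, and the clones differed in how far each gene fell. Of 36 tested, 34 fell in YYFF and 30 in WT, against 19.3% and 17.7% of all genes. The interaction passed the threshold in 24 (66.7% against 31.8%), with 14 positive and 10 negative, and the median was 0.24. Isg15, a ubiquitin-like modifier, had signals of 13.03 and 12.84 in WT L0, 6.67 and 6.94 in WT L8, 12.44 and 12.62 in YYFF L0, and 9.12 and 9.26 in YYFF L8. The clones started close together and WT fell further, with changes of -6.13 ± 0.14 in WT and -3.34 ± 0.14 in YYFF (interaction 2.79 ± 0.19, adjusted p = 1.06e-05).

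Ifit3, which binds viral RNA complexes, nearly kept its level in YYFF. Its signals were 11.76 and 11.67 in WT L0, 7.98 and 7.96 in WT L8, 11.25 and 11.30 in YYFF L0, and 10.96 and 10.98 in YYFF L8. It fell by 3.75 ± 0.09 in WT and by 0.31 ± 0.09 in YYFF (interaction 3.44 ± 0.12, adjusted p = 2.88e-07). Cxcl10, an interferon-induced chemokine, changed by -4.12 ± 0.21 in WT and -0.65 ± 0.21 in YYFF. Oasl1, related to the oligoadenylate synthetases, fell at least 11-fold in WT, to background, and by 0.96 ± 0.12 in YYFF. Usp18, the protease that removes Isg15 from proteins, had the lowest WT change of the list, -6.80 ± 0.11, against -4.33 ± 0.11 in YYFF.

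Other members fell further in YYFF. Irf9, the DNA-binding subunit of the interferon-activated factor, changed by -3.02 ± 0.11 in YYFF and -2.25 ± 0.11 in WT, and Irf1 fell by 0.87 ± 0.10 in YYFF alone. Trim30a, a tripartite motif protein, had signals of 9.07 and 8.98 in YYFF L0 and 5.09 and 4.78 in YYFF L8 and was at background in WT. Ifi27l2a fell by 4.52 ± 0.29 in YYFF from 12.31 and 12.46, against -0.83 ± 0.29 in WT from 7.26 and 8.15 (adjusted p = 0.0517).

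The upstream sequences of Isg15, Ifit3, Cxcl10 and Trim30a are shown because they hold the core of the interferon-stimulated response element, a site read by the STAT and IRF factors. They are RefSeq promoter sequences of build GRCm38.p6, on the strand of the gene, with the motif in capitals. Isg15 lies at chr4:156200845-156200926 (minus strand), Ifit3 at chr19:34583343-34583446 (plus strand), Cxcl10 at chr5:92349063-92349132 (minus strand) and Trim30a at chr7:104465194-104465259 (minus strand).
Isg15: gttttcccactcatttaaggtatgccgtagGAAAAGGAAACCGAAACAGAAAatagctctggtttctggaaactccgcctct
Ifit3: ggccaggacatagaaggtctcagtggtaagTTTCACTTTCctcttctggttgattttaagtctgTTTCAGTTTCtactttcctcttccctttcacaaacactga
Cxcl10: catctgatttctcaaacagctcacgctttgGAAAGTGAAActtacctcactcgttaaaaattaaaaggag
Trim30a: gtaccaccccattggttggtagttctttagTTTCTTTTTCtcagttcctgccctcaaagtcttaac
The letters searched were TTTC, any 2 bases and TTTC, on either strand, in the 250 bases before each start, and overlapping matches, 3 in Isg15, were merged. They occurred in 232 of 7278 tested genes with an entry (3.19%) and in 14 of 28 interferon genes with an entry. Among members past the interaction threshold they were in 9 of 12 with a positive and 1 of 7 with a negative interaction, and in 4 of 9 not past it. These counts describe a motif chosen with the changes known, in a short window, and no test was made of them.

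**Figure D4:**
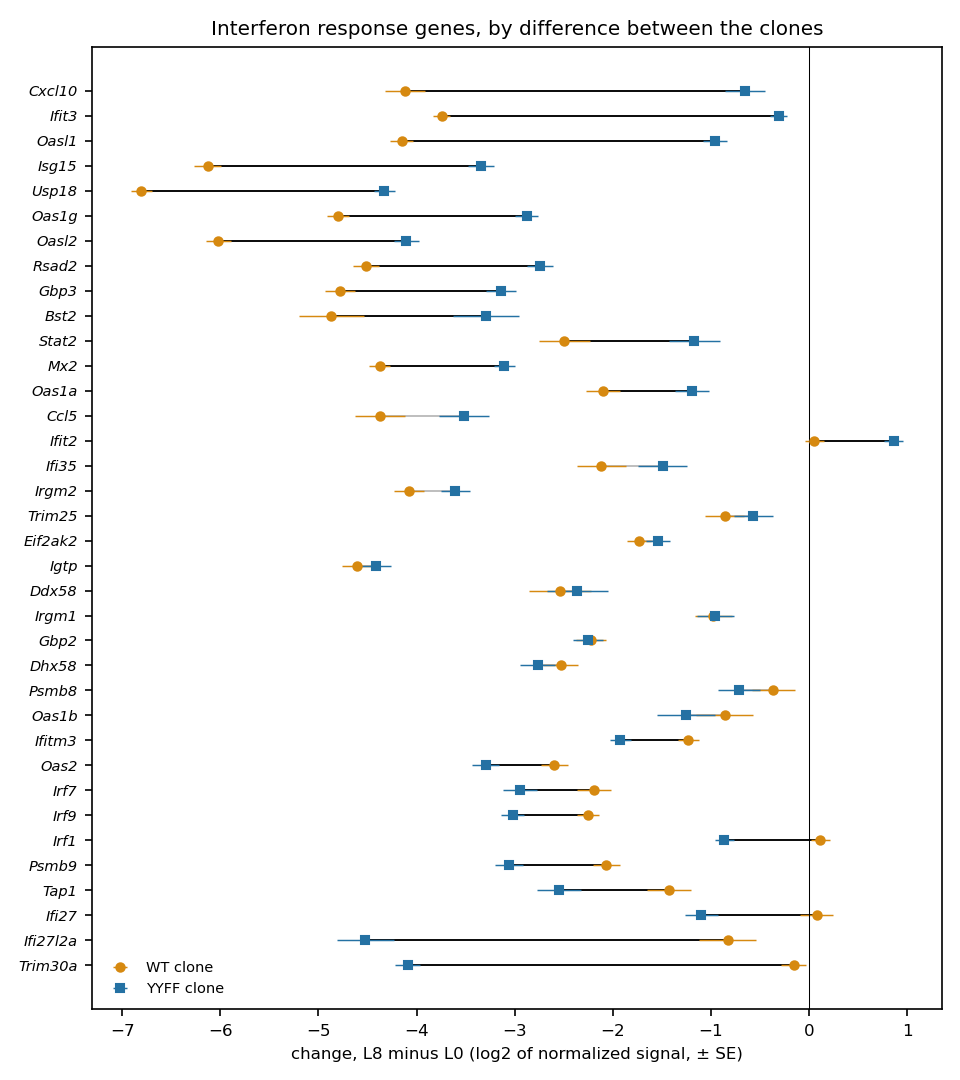
Change over 8 laminin passages (log2 of normalized signal, bars are standard errors, n = 2 arrays per group) of the 36 interferon response genes tested, with circles for WT and squares for YYFF, ordered by the difference between the clones. Black lines join the clones where the interaction passed the threshold, 14 with the YYFF change higher, from Cxcl10 down to Ifit2, and 10 with it lower, down to Trim30a.

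Of 18 genes of MHC class I and antigen processing tested, 1 had a positive and 8 a negative interaction past the threshold (50% in all against 31.8%, median -0.85), and 5 passed without WT L8 replicate 1, WT L8 replicate 2 or YYFF L0 replicate 2. Tapbp, the chaperone of peptide loading, had signals of 8.29 and 8.13 in WT L0, 8.07 and 7.93 in WT L8, 8.33 and 8.66 in YYFF L0, and 6.52 and 6.47 in YYFF L8. It fell in YYFF alone, by 2.00 ± 0.20 (interaction -1.78 ± 0.29, adjusted p = 0.00163). Psme1, a proteasome activator subunit, fell by 1.28 ± 0.11 in YYFF with a WT change of 0.07 ± 0.11. Nlrc5, the activator of MHC class I genes, was the member with the positive interaction, 1.09 ± 0.34 (adjusted p = 0.0382), and missed the threshold when any of the 8 arrays was left out (0.0654 to 0.104).

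Mgp, matrix Gla protein, changed by -5.58 ± 0.16 in YYFF and -0.85 ± 0.16 in WT. Col18a1, a basement membrane collagen, changed by -4.66 ± 0.16 and -1.19 ± 0.16, although a dimmer Col18a1 probe gave an interaction of 0.77 (adjusted p = 0.0449 in limma over all detected probes). Tnc, tenascin C, fell further in WT, with changes of -3.61 ± 0.20 in WT and -1.64 ± 0.20 in YYFF. Of 20 interstitial matrix genes tested, 12 passed the threshold (60% against 31.8% of all genes), 4 with a higher and 8 with a lower change in YYFF.

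Some lists of basic cell functions held few genes with a clone difference, while others lay near or above the 31.8% of all genes. Of heat shock and chaperone genes 47.6% passed, and of D cyclins, CDK inhibitors and the Rb family 50%. The shares were 36% for glycolysis and hypoxia, 34.8% for the unfolded protein and integrated stress response, and 32.1% for lysosome and autophagy. Of 17 cholesterol synthesis genes 3 passed (17.6%), with a negative interaction in each. Among them was Hmgcs1, which rose by 2.37 in WT and 1.24 in YYFF. Of 19 spindle checkpoint and centrosome genes 1 passed, of 28 DNA replication genes 4, and of 31 respiratory chain genes 6, which are 5.26%, 14.3% and 19.4% against 31.8% of all genes. With 1 of the 8 arrays left out, the counts ran from 0 to 3, from 1 to 3 and from 1 to 8, and median scaling called 0 in each in limma. Of 28 proteasome genes 9 passed (32.1%), 8 of them with a higher change in YYFF, and limma called 0 without WT L8 replicate 1 or YYFF L0 replicate 1 and 1 with median scaling.

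Genes of cytokinesis and abscission, the step that the mutation is said to block on laminin, gave 7 of 19 past the threshold (36.8%, near the 31.8% of all genes), 6 with a higher and 1 with a lower change in YYFF (median 0.40). Leaving out an array gave 3 to 8 members, with 3 without WT L8 replicate 1 or YYFF L0 replicate 2 and 4 without either array of WT L0, WT L8 replicate 2 or YYFF L0 replicate 1. Pdcd6ip, the abscission protein ALIX, had signals of 7.84 and 8.03 in WT L0, 7.25 and 7.33 in WT L8, 7.70 and 7.53 in YYFF L0, and 8.24 and 8.11 in YYFF L8. The groups of each clone did not overlap, and WT fell while YYFF rose (interaction 1.21 ± 0.19, adjusted p = 0.00154). Median scaling left 1 member of the list past the threshold.

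**Figure D5:**
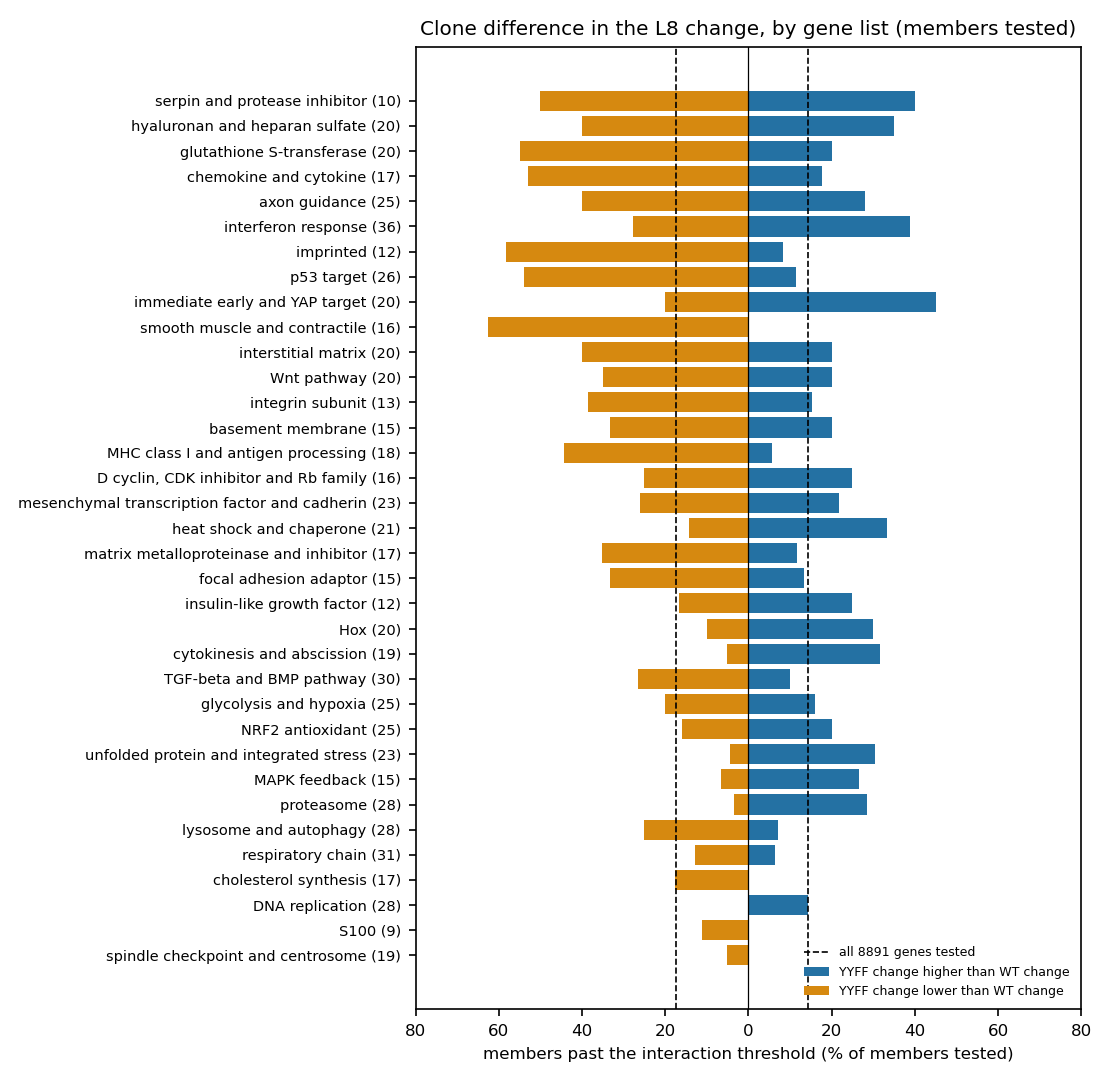
Share of tested members (%, with the number tested in brackets) whose interaction passed the threshold, for gene lists with at least 9 tested members. Bars to the right count members with the higher change in YYFF and bars to the left those with the lower change, and dashed lines give the 14.4% and 17.5% of all genes tested. The contractile list has bars on the left only, while the spindle, DNA replication and cholesterol lists lie near or within the dashed lines.

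The time at which the clones differed varied between the classes. The clones differed past the threshold in 27% of genes at L0 and in 37% at L8. Among genes in opposite directions with YYFF down, 223 of 343 differed at both times, 104 at L8 alone and 16 at L0 alone. Among genes that rose in YYFF alone, 247 of 423 differed at L8 alone and 78 at L0 alone. Among those that fell in YYFF alone, 175 of 501 differed at L8 alone and 166 at L0 alone, as Dlk1 and Lmod1 did. In WT alone, 250 of 447 rising genes differed at L8 alone and 90 at L0 alone. Of 438 genes that fell in WT alone, 155 differed at L8 alone and 147 at L0 alone, as Ndn did.

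The L4 arrays took no part in the contrast, though their spread enters the fit. YYFF and WT differed in 37.9% of genes at L4. The L4 and L8 comparisons use different arrays of each clone. Of 1193 interaction genes with a clone difference at L8 alone, 724 (60.7%) already differed in the same direction at L4 as at L8, 30 in the opposite direction and 439 not past the threshold. Of 658 with a difference at L0 alone, 195 (29.6%) still had it at L4, 43 had the opposite one and 420 had none past the threshold. Isg15 shows a late change in WT, at 12.20 and 11.99 in L4 against 6.67 and 6.94 in L8, and an early one in YYFF, at 9.63 and 9.54 in L4 against 9.12 and 9.26 in L8.

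By chromosome, the share of tested genes past the interaction threshold ran from 27.7% (chromosome 2) to 36.1% (chromosome 12), near the 31.8% of all genes. Chromosome 7 had 64 genes with a higher and 161 with a lower change in YYFF of 679 tested, against 14.4% and 17.5% of all genes. Other chromosomes also had more genes with a lower change. The counts were 60 and 115 of 540 on chromosome 4, 51 and 96 of 464 on 6, and 40 and 74 of 323 on 13. They were 60 and 89 of 440 on 10, 31 and 68 of 296 on 14, 44 and 93 of 439 on 17, and 27 and 54 of 265 on X. Chromosomes 12, 16 and 5 had more genes with a higher than with a lower change. The counts were 64 and 39 of 285, 61 and 37 of 273, and 113 and 76 of 584. So did chromosomes 8 and 19, with 81 and 55 of 463, and 68 and 48 of 326. Chromosomes with smaller gaps between the counts are not listed. Median interactions ran from -0.15 on chromosome 14 to 0.29 on chromosome 12, against 0.03 over all genes.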

How the data were processed

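Total RNA of 12 samples was measured on Illumina bead arrays. Per the file headers, the authors deposited, for 25697 probes on every array, the average bead intensity beside its detection p-value, and a second table of processed intensities. In that table, WT L0 replicate 2 holds its non-normalized signals (100% of values equal), while the other 11 columns share 1 distribution. The processing notes of the submitters name limma, with no version. Groups were read from the sample titles. The lists and the genes were chosen with earlier results of these data known.

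Intensities were corrected with limma 3.58.1 (nec, offset 16, detection p-values in place of control probes) in R 4.3.3, quantile-normalized and put on the log2 scale. Probes with a detection p under 0.05 on at least 2 of 12 arrays were kept (12974), and the brightest probe of each gene was tested (8891 genes). Symbols and chromosomes come from the platform annotation and the RefSeq table of GRCm38.p6. The model had 1 coefficient per group over 12 arrays (residual df 6, prior df 2.91) with eBayes, Benjamini-Hochberg adjustment and a threshold of 0.05, and was tested on simulated data. In that test a first cutoff for the share of large simulated interactions called was missed. It was replaced by checks of size, sign and false calls, which were met. The p-values reflect only how far the arrays of a group differ, which may be technical variation, and the number of arrays limits the precision.

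Genes named are Itgb1, Xist and Y-linked genes, then per class the 8 with the greatest interaction in size among those above background on all 8 arrays and past the threshold with any array left out, up to 4 that were at background in some group, and up to 5 members of each list past the threshold. Other genes named were chosen after their values were seen. Promoter sequences are RefSeq's, with 7278 of the tested genes matched, and both motifs were chosen after the changes were seen. The alternatives were other background correction, normalization, probe filters and probe choice, the authors' processed values, the 8 arrays alone, array weights, each array left out, and the replicate number as a block. The title numbers pair the arrays weakly (correlations of deviations 0.0940 to 0.190).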

Additional observations from a re-analysis of the deposited data

Results flagged for a closer look

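Each result here was picked out because the change over 8 passages differed between the clones in the limma interaction test. All genes past the threshold meet the same criterion, so the counts are given with the genes that lead the opposite class. They were 2831 genes past the threshold, 533 with changes in opposite directions, 924 changed in YYFF alone and 885 in WT alone.

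Among genes that rose in YYFF and fell in WT, the interactions were 4.56 for Scara3, 3.87 for Ramp2, 3.84 for Fez1, 3.83 for Ckb, 3.79 for Ccdc68, 3.40 for Stc2, 3.33 for Sdcbp2 and 3.27 for Frat2. Those at background in a group were AA467197 at 6.64, Gap43 at 5.04, Gfpt2 at 5.03 and Thbs2 at 4.82. Without WT L0 replicate 2 the WT change of Frat2 was -0.51 and missed the threshold (limma, adjusted p = 0.165), as those of Gfpt2 and Thbs2 did.

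Among genes that fell in YYFF and rose in WT, the interactions were -6.79 for Ogn, -5.25 for Hs3st3a1, -5.23 for Ppbp, -5.07 for Ptn, -4.72 for Arhgap24, -4.61 for Stmn2, -4.18 for Aldh3b1 and -4.16 for Cbr2. Those at background in a group were Tmem176b at -7.41, Rspo3 at -7.25, Itga11 at -7.25 and Angptl7 at -6.99. In all 24 genes the L4 interaction also passed in the same direction, against 23.7% of all genes past the threshold at L4 in either direction. The L4 and L8 interactions share their L0 arrays, and the 24 genes were picked by their L8 interaction, so this count is not a separate test. The clone differences at L4 and at L8 share no array. In 20 of the 24 genes the clone difference at L4 passed in the same direction as at L8. Of all genes, 37.9% had a clone difference past the threshold at L4 in either direction.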

How the results depend on the processing

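Median scaling moved the counts most. It called 1753 interactions, 607 of them positive, with 283 genes in opposite directions, 600 in YYFF alone and 476 in WT alone, and 197 of the 232 named genes kept their call. The cause was not tested. With 1 array left out, limma called 2145 to 2798 interactions, 898 to 1281 positive and 1242 to 1517 negative, with 346 to 522 genes in opposite directions (346 without WT L8 replicate 2), 659 to 855 in YYFF alone and 604 to 908 in WT alone. Under the other settings, apart from the replicate blocks given below, the counts of interactions ran from 2313 to 2960. The count of 2313 is out of 6559 genes tested, those above background on all 8 arrays, and 2960 is out of 8891 with an offset of 50. The lower count thus comes with fewer genes tested. Of 2117 interactions of the main fit among the 6559 genes, 2116 were called again. No named gene past the interaction threshold passed it with the opposite sign under any setting. This does not cover interactions that missed the threshold, such as those of Itgb1 and Uty.

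With the title replicate number as a block (replicate block), limma called 3135 interactions, 2797 of them shared with the fit without it, and 623, 1028 and 969 genes in the 3 classes. It changed no call of a named gene. A block by the number in the file headers, added after the data were seen, gave 2559. The headers and titles number the replicates alike in 3 of 6 groups. Genes at background in a group have bounds only.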
